A study of Mus musculus with 2 samples.

Results

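The miR-17 seed family, with miR-17, miR-20, miR-93 and miR-106 paralogs, is a set of miRNAs that share the bases with which a miRNA finds its target. Its 6 mouse hairpins Mir17, Mir20a, Mir20b, Mir93, Mir106a and Mir106b were taken by symbol from GENCODE M21, which names 1174 miRNA hairpins in all. Small RNA was sequenced from J1 cells, a mouse embryonic stem cell line, grown on gelatin in medium with serum replacement and 1000 U/mL of the self-renewal cytokine LIF. The control library came from cells given DMSO, the solvent, for 24 h, and the PD03 library from cells given 1 μM PD0325901, which inhibits MEK and thereby ERK1/2 signaling. Each treatment was 1 library of RNA pooled from 3 independent experiments, so there were no replicates, and every interval and p below covers the sampling of reads only and compares 2 libraries, not the treatments as such.

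A miRNA is cut from 1 side of a hairpin-shaped precursor, and both sides, the 5p and the 3p arm, can give a mature miRNA. Bases 2 to 8 from the 5′ end form the seed, which pairs with target mRNAs. The family lies in 3 paralogous clusters, of which miR-17-92 is known for its roles in growth and cell survival, miR-106b-25 is carried by the Mcm7 gene, whose protein is a subunit of the replicative helicase, and miR-106a-363 is on the X chromosome. In mouse embryonic stem cells the family is expressed beside the miR-290 cluster, whose best known members carry a seed shifted by a single base.

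The 5p miRNAs are shown first because they carry the shared seed. The RefSeq mature sequences on GRCm38.p6 read as follows, 5′ to 3′, with the seed in capitals.
miR-17-5p: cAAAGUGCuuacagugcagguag
miR-20a-5p: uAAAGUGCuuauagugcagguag
miR-20b-5p: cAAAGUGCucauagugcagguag
miR-93-5p: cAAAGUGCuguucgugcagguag
miR-106a-5p: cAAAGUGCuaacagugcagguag
miR-106b-5p: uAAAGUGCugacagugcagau
All 6 had the seed AAAGUGC, and no other detected miRNA had it in its most frequent read sequence. Over the first 21 bases the 6 sequences differed at 6 positions, which were 1, 10, 11, 12, 13 and 20 counted from the 5′ end, and shared the other 15. The closest pair, miR-17-5p and miR-106a-5p, differed by U10A only, where the first base is that of miR-17-5p. The 3p miRNAs had 4 different seeds, and those of miR-17 and miR-106b are shown because these 2 arms were abundant.
miR-17-3p: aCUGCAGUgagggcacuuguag
miR-106b-3p: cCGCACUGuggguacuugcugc

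In GRCm38, Mir17 occupies bases 115043671 to 115043754 and Mir20a bases 115044157 to 115044263 of chromosome 14 (plus strand), both within an exon of the lincRNA Mir17hg. Mir106a is on the X chromosome (minus strand) from 52742503 to 52742567, where its end touches exons of the noncoding gene Kis2. Mir20b lies on that strand from 52742113 to 52742192 in no other annotated gene. Mir106b, from 138165737 to 138165818, and Mir93, from 138165523 to 138165610, are inside Mcm7 on chromosome 5 (minus strand). Mir93 was covered by an exon of a retained-intron transcript of Mcm7 and Mir106b by none.

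Clean reads numbered 18870345 in the control and 20944808 in the PD03 library. Levels are given as RPM, clean reads scaled to a common library size as is usual for small RNA, in which 3 reads were worth 0.159 and 0.143. Reads of 20 to 24 nt, the length range of most miRNAs, made up 63.0% of the control and 52.0% of the PD03 library, and reads that matched a miRNA hairpin 11.6% and 10.1%. The miRNAs as a whole were therefore lower per clean read in the PD03 library, with a median log2 fold change of -0.17 over the 498 miRNAs detected at 1 RPM or more in either library. With size factors of DESeq2, which are set by the detected miRNAs themselves, the median fold change was 1.00, and with reads of 20 to 24 nt as denominator the median log2 fold change was 0.11. Fold changes are therefore given per clean read, and the value with DESeq2 size factors stands beside them for members, sums and neighbours. That scale multiplies each fold change by the same factor. Comparisons within the family need no denominator. miR-294-3p of the miR-290 cluster, which marks mouse embryonic stem cells, was abundant with 2896 RPM in the control library and 2339 RPM in the PD03 library.

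The 6 hairpins drew 18460 reads in the control and 18606 in the PD03 library, in 150 distinct tags. Of these tags 0 matched more than 1 member and 0 matched any other named hairpin, so the paralogs could be counted apart. The base at position 10 separated miR-17-5p from miR-106a-5p cleanly. Reads identical to the mature miRNA but for this base numbered 1542 and 1511 with U, the base of miR-17-5p, 479 and 446 with A, the base of miR-106a-5p, 1 and 0 with C, and 0 and 0 with G. The tags of Mir93 also match the retained-intron transcript of Mcm7, and those of Mir17 and Mir20a match Mir17hg, as their positions require.

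The family was led by miR-93-5p, which alone gave 50.1% of its 5p reads in the control (95% Wilson interval 49.3 to 50.9) and 53.4% in the PD03 library (52.6 to 54.2). It stood at 378 RPM in the control and 375 in the PD03 library and was 47th of the 498 detected miRNAs in each. miR-106b-5p followed with 127 and 118 RPM, and then miR-17-5p with 116 and 97.2 RPM. The lower end was formed by miR-20a-5p with 55.6 and 47.8 RPM, miR-20b-5p with 46.8 and 38.2 RPM, and miR-106a-5p with 31.1 and 26.1 RPM. This order was the same in both libraries, and the intervals of neighbours as shares of the family did not overlap in either. The closest neighbours in the control were miR-20a-5p, with 6.95 to 7.81% of the 5p reads, and miR-20b-5p, with 5.82 to 6.62%.

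The clusters thus differed in weight. The members from miR-106b-25 summed on the 5p arm to 505 RPM in the control and 494 in the PD03 library. Those from miR-17-92 summed to 171 and 145 RPM, and those from miR-106a-363 to 77.9 and 64.4 RPM.

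The 3p arms fell into an abundant and a scarce group. miR-106b-3p stood at 128 RPM in the control and 116 in the PD03 library, and miR-17-3p at 90.2 and 64.2 RPM. The other 4 were rare. miR-20b-3p had 36 and 29 reads and miR-106a-3p 31 and 41, while miR-20a-3p with 12 and 10 reads and miR-93-3p with 10 and 13 stayed under 1 RPM in both libraries and were not detected. Of the 12 member arms 10 were thus detected.

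**Figure D1:**
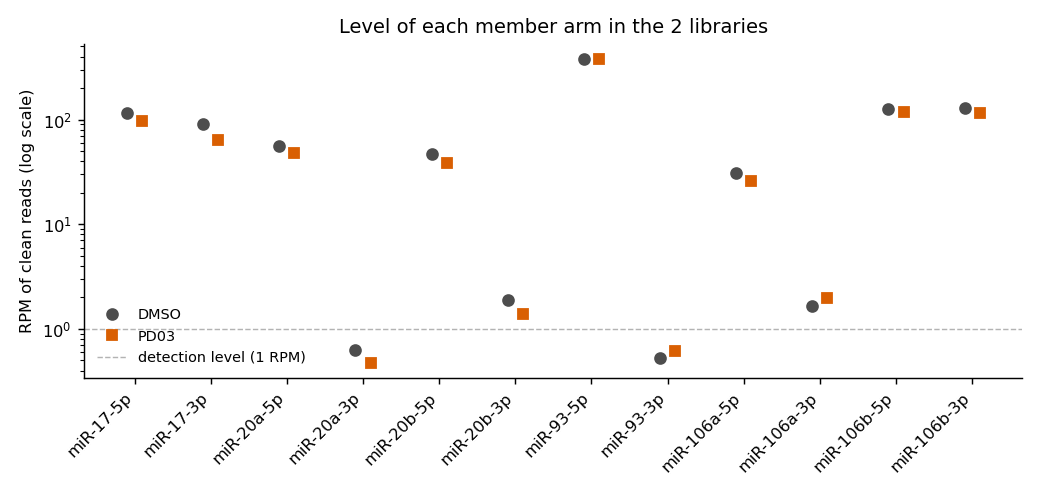
Level of the 5p and 3p arm of each member in RPM of clean reads on a log axis, with 1 point for the DMSO and 1 for the PD03 library and no replicates. miR-93-5p is highest at 378 and 375 RPM, and miR-20a-3p and miR-93-3p lie under the detection level of 1 RPM.

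No member arm differed between the libraries by 1.5-fold or more, against 19.9% of all 498 detected miRNAs (13.9% lower and 6.02% higher), nor with DESeq2 size factors, against 15.5%. Per clean read 9 of the 10 detected arms were below the control level, against 67.5% of all detected miRNAs, and their median fold change was 0.851 against 0.888 over all. In the exact binomial test, adjusted by Benjamini-Hochberg over all detected miRNAs, 7 arms were lower with adjusted p below 0.05 and 0 were higher, against 36.1% and 9.24% of all. With DESeq2 size factors 6 of the 10 were below the control level, against 50.0% of all, and 1 was lower and 1 higher at that adjusted p, against 19.9% and 19.5%, so the first count rested on the denominator.

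miR-93-5p kept its level per clean read. It had 7130 reads in the control and 7859 in the PD03 library, a fold change of 0.993 per clean read (95% interval 0.962 to 1.03, adjusted p = 0.773 in the exact binomial test). With DESeq2 size factors its fold change was 1.12 (1.08 to 1.15, adjusted p = 5.4e-11 in the exact binomial test), and it was above the control level with each of the 4 other denominators tried.

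miR-17-3p was lowest among the abundant arms. It had 1703 reads in the control and 1344 in the PD03 library, a fold change of 0.711 per clean read (0.661 to 0.764, adjusted p = 4.73e-20 in the exact binomial test). With DESeq2 size factors it was 0.801 (0.745 to 0.860, adjusted p = 5.61e-09 in the exact binomial test). It was the 1 member arm that stayed lower at that threshold with all 5 denominators.

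The 5p arms of the miR-17-92 and miR-106a-363 members lay close together. The fold change per clean read was 0.840 for miR-17-5p (0.790 to 0.893), 0.861 for miR-20a-5p (0.788 to 0.939), 0.816 for miR-20b-5p (0.741 to 0.899) and 0.841 for miR-106a-5p (0.747 to 0.947). Each passed an adjusted p of 0.05 in the exact binomial test on this scale, and none did with DESeq2 size factors, where the values were 0.946, 0.969, 0.919 and 0.947. The intervals of these 4 overlapped one another on either scale.

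Both arms of miR-106b lay between these and miR-93-5p. miR-106b-5p had 2404 and 2479 reads, a fold change of 0.929 (0.878 to 0.983), and miR-106b-3p 2423 and 2425 reads, a fold change of 0.902 (0.852 to 0.954). Both passed an adjusted p of 0.05 per clean read, whereas with DESeq2 size factors they turned to 1.05 and 1.02 with intervals that held 1. The scarce arms miR-20b-3p and miR-106a-3p had fold changes of 0.726 (0.429 to 1.22) and 1.19 (0.729 to 1.97), and a change of either was not detectable at this depth.

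**Figure D2:**
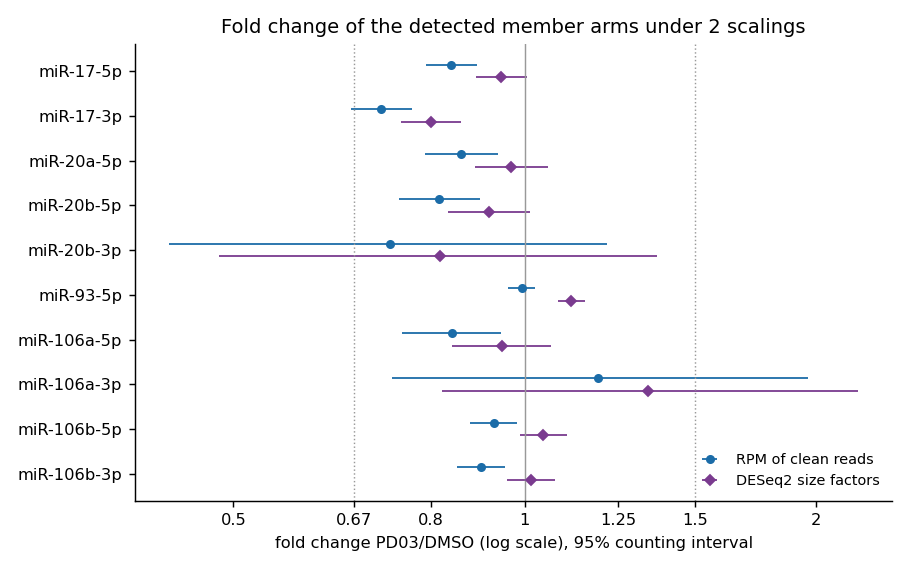
Fold change between the PD03 and DMSO libraries for the 10 detected member arms on a log axis, per clean read (circles) and with DESeq2 size factors (diamonds), with 95% counting intervals and dotted lines at 1.5-fold either way. Every arm moves to the right on the DESeq2 scale, miR-93-5p from 0.993 to 1.12, and the order of the arms is kept.

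Summed over the family, the 5p reads had a fold change of 0.932 per clean read (0.910 to 0.954) and 1.05 with DESeq2 size factors (1.03 to 1.07), so their direction was set by the denominator. The sum of the 5 members other than miR-93-5p, taken after seeing the data, was at 0.870 per clean read. It was not computed with DESeq2 size factors, where the single 5p arms of these 5 members lay between 0.919 and 1.05. The 3p reads had a fold change of 0.826 (0.790 to 0.863) per clean read and 0.930 (0.890 to 0.971) with DESeq2 size factors. By cluster, the 5p fold change per clean read was 0.847 (0.805 to 0.890) for miR-17-92, 0.826 (0.767 to 0.890) for miR-106a-363 and 0.977 (0.95 to 1.00) for miR-106b-25. On the DESeq2 scale these were 0.953 (0.907 to 1.00), 0.930 (0.863 to 1.00) and 1.10 (1.07 to 1.13), so that miR-106b-25 turned above the control level.

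Within the family, the balance of the paralogs moved toward miR-93-5p. The ratio of miR-93-5p to the 5 other 5p miRNAs was higher in the PD03 library, with an odds ratio of 1.14 (exact 95% interval 1.09 to 1.20). All 15 pairs of members were compared in this way. Of these, 7 had an interval that left out 1. They were all 5 pairs with miR-93-5p and 2 with miR-106b-5p. The ratio of miR-93-5p to miR-20b-5p gave the widest difference, since miR-20b-5p relative to miR-93-5p was at 0.822 of its control value (0.742 to 0.910). Relative to miR-106b-5p, miR-17-5p was at 0.904 (0.832 to 0.983) and miR-20b-5p at 0.879 (0.785 to 0.983).

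For the 6 pairs among miR-17-5p, miR-20a-5p, miR-20b-5p and miR-106a-5p, each interval held 1. miR-17-5p relative to miR-106a-5p, its nearest relative in sequence, was 3.73 in the control and 3.72 in the PD03 library (ratio of the 2, 0.999, 0.874 to 1.14). miR-17-5p relative to miR-20a-5p, which comes from the same transcript, was 2.08 and 2.03 (0.976, 0.877 to 1.09). Differences smaller than these intervals were not detectable at this depth.

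The choice of arm differed widely among the hairpins. The 5p arm gave 99.9% of the arm reads of miR-93 in the control, 98.9% for miR-20a, 96.1% for miR-20b and 95% for miR-106a. In contrast it gave 56.2% for miR-17 and 49.8% for miR-106b, whose arms were thus present in comparable numbers. miR-93 and miR-106b come from the same host gene and lie at opposite ends of this range.

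Between the libraries, the arm share differed beyond counting error in miR-17. Its 5p share was 56.2% in the control (95% Wilson interval 54.6 to 57.7) and 60.2% in the PD03 library (58.6 to 61.9), an odds ratio of 1.18 (1.07 to 1.30). This rested on shorter reads. The odds ratio was 0.951 (0.820 to 1.10) with tags identical to the mature miRNA alone. With tags of 21 nt or more it was 1.05 (0.955 to 1.16). For miR-106b the share was 49.8% and 50.6%, with an odds ratio of 1.03 (0.951 to 1.12). The intervals of the odds ratio of the other 4 hairpins also held 1, and were wide because their 3p arms had at most 41 reads. Over the family the 5p share was 77.2% in the control and 79.2% in the PD03 library (odds ratio 1.13, 1.07 to 1.19). This sum also depends on the mix of hairpins. miR-93, almost all 5p, gave 50.1% of the family's 5p reads in the control and 53.4% in the PD03 library. With identical tags the family odds ratio was 1.22 and that of miR-17 was 0.951. The family share is therefore no measure of arm choice within a hairpin.

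**Figure D3:**
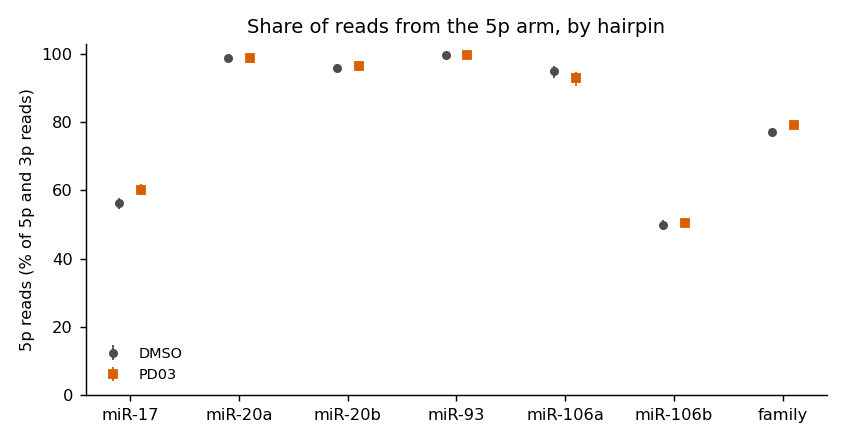
Share of the arm reads that came from the 5p arm, in percent, for each hairpin and the family sum, in the DMSO and PD03 libraries with 95% Wilson intervals. Only miR-17, at 56.2 and 60.2%, and the family sum, at 77.2 and 79.2%, differ between the libraries beyond their intervals. The family sum also depends on the mix of hairpins. miR-106b sits near the middle at 49.8 and 50.6%.

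The 3′ ends gave the largest differences seen in the family. They were examined after the values had been seen. miR-93-5p is shown, since its reads were the most numerous. Its tags of 20 to 24 nt that start at the first base of the mature miRNA read as follows, with the bases that vary in length in capitals.
miR-93-5p, 24 nt: caaagtgctgttcgtgcaggTAGT
miR-93-5p, 23 nt: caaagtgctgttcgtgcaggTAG
miR-93-5p, 22 nt: caaagtgctgttcgtgcaggTA
miR-93-5p, 21 nt: caaagtgctgttcgtgcaggT
miR-93-5p, 20 nt: caaagtgctgttcgtgcagg
The tag of 23 nt is the RefSeq mature miRNA. It had 3045 reads in the control and 4663 in the PD03 library, or 161 and 223 RPM, a fold change of 1.38 (1.32 to 1.44). The tag of 24 nt, with 68 and 144 reads, was at 1.91 (1.42 to 2.58). The DESeq2 scale put these at 1.55 and 2.15.

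The shorter tags of miR-93-5p went the other way. The tag of 22 nt had 2259 and 1932 reads, a fold change of 0.771 (0.725 to 0.819). That of 21 nt had 1281 and 864 reads, a fold change of 0.608 (0.557 to 0.663), and that of 20 nt 271 and 132 reads, a fold change of 0.439 (0.354 to 0.542). These stayed below the control level on the DESeq2 scale at 0.868, 0.684 and 0.494. The tags of 19 and 18 nt, with 66 and 44 reads and 108 and 42 reads, were at 0.601 and 0.350 per clean read. The total of miR-93-5p at 0.993 per clean read was thus made of longer reads that were more frequent and shorter reads that were less frequent in the PD03 library.

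Counted over all its tags, miR-93-5p ended short of its most frequent tag in 56.1% of reads in the control (55.0 to 57.3) and 38.5% in the PD03 library (37.4 to 39.6), an odds ratio of 0.490 (0.458 to 0.523). Its mean length was 22.1 nt in the control and 22.4 nt in the PD03 library. miR-20a-5p had the same odds ratio of 0.490 (0.404 to 0.593), with 41.8% and 26% of reads ending short. miR-20b-5p followed at 0.641 (0.496 to 0.826), with 22.4% and 15.6%, and miR-17-5p at 0.761 (0.651 to 0.888), with 22.3% and 17.9%.

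miR-17-3p, the arm with the lowest fold change, showed the same pattern. It ended short in 56.7% of its reads in the control and 43.6% in the PD03 library, an odds ratio of 0.590 (0.509 to 0.683). Its tag of 23 nt had 464 and 478 reads, a fold change of 0.928 (0.815 to 1.06), and its tag of 19 nt 88 and 20 reads, a fold change of 0.205 (0.119 to 0.336). The DESeq2 scale put them at 1.05 (0.918 to 1.19) and 0.231 (0.134 to 0.378). The longer and the shorter form are shown with the bases that vary in capitals.
miR-17-3p, 23 nt: actgcagtgagggcacttgTAGC
miR-17-3p, 19 nt: actgcagtgagggcacttg
Counting the tags identical to the 23 nt form alone took away the lower call for miR-17-3p (adjusted p = 0.374 in the exact binomial test), and most of its lower level per clean read lay in reads that ended short.

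3 arms had no such difference beyond counting error. miR-106b-5p ended short in 33.8% of reads in the control and 33.3% in the PD03 library (odds ratio 0.978, 0.867 to 1.10), although its tags of 19 nt were fewer, with 30 and 14 reads. For miR-106b-3p the shares were 20.2% and 19.8% (0.976, 0.846 to 1.13), and for miR-106a-5p 14% and 14.6% (1.05, 0.744 to 1.49). In total 5 of the 8 member arms with at least 50 reads in each library had an interval of the odds ratio below 1, against 42.7% of the 349 detected miRNAs with that depth, and 0 had one above 1, against 2.29%. The median odds ratio was 0.701 over the 8 arms and 0.760 over all 349. The 349 include miRNAs whose reads lay close to 18 nt, the shortest kept, and could hardly end short. One of them, miR-296-3p, had a mean length of 18.2 nt in the control and ended short in 0.038% of its reads there. The 2 sets are therefore not fully alike in this measure. A lower share of reads that ended short was thus seen in many miRNAs of the PD03 library. The share of 20 to 24 nt reads among all clean reads, 63.0% and 52.0%, moved beside it, and its part in the result was not tested.

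**Figure D4:**
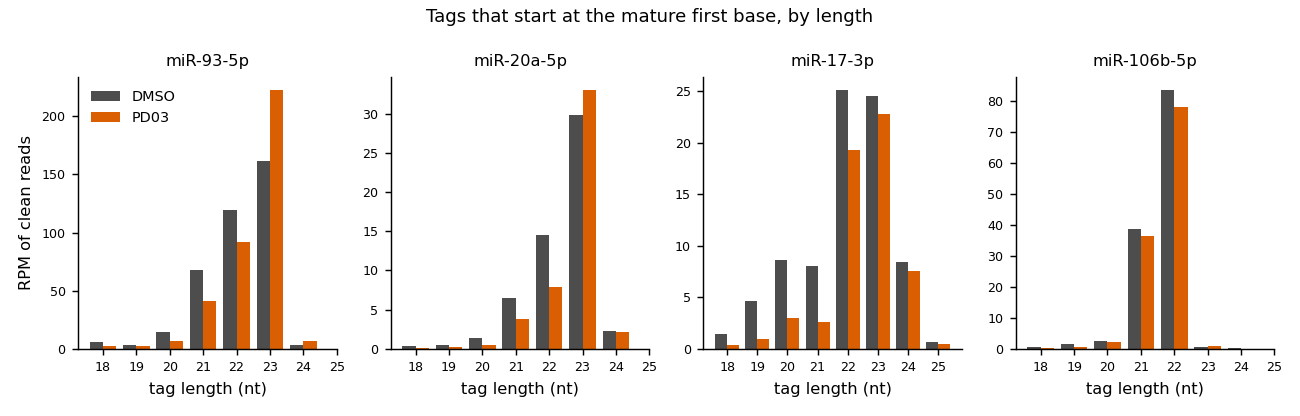
RPM of clean reads of the tags that start at the first base of the mature miRNA, by tag length in nt, for miR-93-5p, miR-20a-5p, miR-17-3p and miR-106b-5p in the DMSO and PD03 libraries, each panel with its own scale from 0. In miR-93-5p the bar at 23 nt is taller in PD03 (161 and 223 RPM) and those at 20 to 22 nt are shorter, while the bars of miR-106b-5p differ little.

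**Figure D5:**
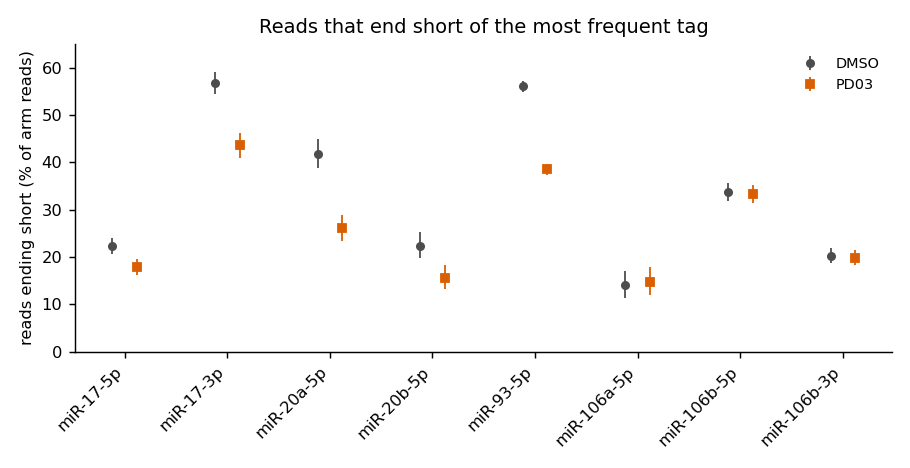
Percent of the reads of an arm that end short of its most frequent tag, in the DMSO and PD03 libraries with 95% Wilson intervals, for the 8 member arms with at least 50 reads in each library. The share is lower in PD03 for 5 arms, most for miR-93-5p at 56.1 and 38.5%, and close for miR-106a-5p and both arms of miR-106b.

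The 5′ ends of the 5p miRNAs, which set the seed, were precise and alike in the libraries. Over the family 99.2% of the 5p reads in the control and 99.3% in the PD03 library started at the first base of the mature miRNA. A start 1 base downstream was found in 75 reads, or 0.527%, and in 72 reads, or 0.489% (odds ratio 0.928, 0.661 to 1.30). Such reads have AAGUGCU at bases 2 to 8, the seed of miR-294-3p and miR-291a-3p of the miR-290 cluster and of miR-302a-3p, miR-302b-3p and miR-302d-3p. The 5′ ends of miR-17-3p were less precise. It started 1 base downstream in 146 of 1703 reads in the control, or 8.57%, and in 143 of 1344 in the PD03 library, or 10.6% (odds ratio 1.27, 0.989 to 1.63).

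Among the 5p miRNAs, miR-106a-5p had the highest share of reads that start 1 base downstream. They were 28 of 586 reads in the control, or 4.78% (95% Wilson interval 3.33 to 6.82), and 25 of 547 in the PD03 library, or 4.57% (3.11 to 6.66). On the 5p arm of the other 5 members the share was at most 0.792% in either library, with upper limits of at most 1.63%. miR-106a-5p thus stood apart from these 5p miRNAs in both. The most frequent shifted tag of miR-106a-5p is shown beside that of miR-93-5p, with bases 2 to 8 in capitals.
miR-106a-5p, 1 base downstream: aAAGTGCTaacagtgcaggtag
miR-93-5p, 1 base downstream: aAAGTGCTgttcgtgcaggtag
The first had 24 and 21 reads and the second 14 and 22, although miR-93-5p was the far more abundant miRNA. The 5 detected miRNAs whose most frequent tag carries the shifted seed summed to 3383 RPM in the control and 2749 in the PD03 library. The 6 members with AAAGUGC summed to 754 and 703 RPM. Seeds were read from the most frequent tag only, so miRNAs with the shifted seed in other tags alone were left out. miR-295-3p of the miR-290 cluster, with 42210 reads in the control and 43744 in the PD03 library, was not among the 5.

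The other hairpins of the 3 clusters, Mir18a, Mir19a, Mir19b-1, Mir92a-1, Mir18b, Mir19b-2, Mir92a-2, Mir363 and Mir25, served as a list of neighbours transcribed with the members. These 9 hairpins gave 13 detected miRNAs. Of these, 10 were below the control level per clean read, 8 were lower and 1 was higher in the exact binomial test (adjusted p below 0.05), against 67.5%, 36.1% and 9.24% of all detected miRNAs. Their median fold change was 0.799 against 0.888 over all. With DESeq2 size factors 8 were below the control level, 6 were lower and 2 higher, against 50.0%, 19.9% and 19.5%, and the median was 0.9. The lowest was miR-92a-3p, which comes from both Mir92a-1 and Mir92a-2, with 1696 RPM in the control and 1021 in the PD03 library, a fold change of 0.602 (0.592 to 0.613) per clean read and 0.678 (0.666 to 0.690) with DESeq2 size factors. The highest was miR-19b-3p, from Mir19b-1 and Mir19b-2, with 49.2 and 58.1 RPM, a fold change of 1.18 (1.08 to 1.29) and 1.33 (1.22 to 1.45). miR-92a-3p and miR-363-3p, the latter at 0.640, were the 2 neighbours past 1.5-fold per clean read, against 19.9% of all, and were named after their values were seen. With DESeq2 size factors, where miR-363-3p was at 0.721, 0 neighbours were past 1.5-fold, against 15.5% of all. With other denominators 7 to 9 of the 13 were below the control level. Both extremes come from 2 clusters whose family members lay between 0.816 and 0.861 on the 5p arm. With all tag lengths counted, the miRNAs of a cluster thus did not share a single fold change. Both extremes ended short less often in the PD03 library, miR-92a-3p in 2.13% and 1.29% of reads and miR-19b-3p in 61.5% and 46.8%. This share is counted from the most frequent tag of each, so the percentages of the 2 miRNAs cannot be set against each other. The mean length was 20.8 nt in the control and 21.1 nt in the PD03 library for miR-92a-3p, and 22.1 and 22.4 nt for miR-19b-3p. The part of the 3′ ends in these fold changes was not tested.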

How the data were processed

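The authors sequenced gel-purified small RNA, cleaned the reads (the shortest kept was 18 nt), collapsed identical ones, and deposited for each distinct tag its raw count of clean reads. The submitters' notes name mm9, but the tags carry no coordinates. With Python 3.11.15, tags were matched over their whole length to 1174 named miRNA hairpins of GENCODE M21 (GRCm38), whose arms were separated by folding (ViennaRNA 2.7.2). GENCODE lists miR-18a and miR-92a as Mir18 and Mir92. The mature miRNA was the most frequent tag of an arm, and tags overlapping it by at least 16 nt were counted. Arms with the same mature tag were merged. RefSeq held all 12 member arms, 6 of them identical to the most frequent tag.

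For each miRNA a 2-sided exact binomial test (SciPy 1.17.1) set its split between the libraries against that of all clean reads, with Benjamini-Hochberg adjustment over 498 detected miRNAs and Clopper-Pearson intervals of the fold change. Shares have Wilson intervals, and ratios within the family conditional odds ratios with exact intervals. Reads are PCR products, and intervals cover counting error only. Without replicates, neither quasi-likelihood nor DESeq2 models could be fitted. Scaling by edgeR 4.0.16 (TMM) and DESeq2 1.42.0 (size factors) and the exact test of edgeR with an assumed BCV of 0.1 or 0.2 were alternatives.

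The members, lists and tests were chosen with earlier results of these data known. Named were both arms of all members, the lowest and highest neighbour in the clusters, miRNAs with the same seed, the 3 miRNAs nearest to the most abundant arm, and the most frequent tags of each arm. Data were also simulated with the sampling of reads as their only variation. In them the exact binomial test called 99 of 100 miRNAs changed 2-fold, 85 of 99 changed 1.5-fold and 5 of 258 unchanged. These counts do not cover variation between cultures or libraries, so they give no error rate for the calls above.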

Additional observations from a re-analysis of the deposited data

How the results depend on the processing

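With 1 library per treatment, differences between cultures, RNA pools or libraries cannot be told from differences between treatments, and scarce 3p arms were limited by depth. No paired analysis was possible because there was 1 library per treatment. The 4 other denominators, miRNA hairpin reads, reads of 20 to 24 nt, TMM and DESeq2 in this order, turned the family 5p fold change to 1.07, 1.13, 1.05 and 1.05 and moved the 3p one to 0.947, 1.00, 0.928 and 0.930. They gave 0.971, 1.03, 0.951 and 0.953 for the 5p reads of miR-17-92, 0.947, 1.00, 0.929 and 0.930 for miR-106a-363, and 1.12, 1.18, 1.10 and 1.10 for miR-106b-25. They left 2, 4, 2 and 2 member arms at an adjusted p under 0.05. They turned miR-93-5p to 1.14, 1.20, 1.12 and 1.12, miR-106b-5p to 1.07, 1.13, 1.04 and 1.05, and miR-106b-3p to 1.03, 1.09, 1.01 and 1.02. Reads of 20 to 24 nt also turned miR-17-5p to 1.02, miR-20a-5p to 1.04 and miR-106a-5p to 1.02.

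Tags identical to the mature miRNA alone gave 1.10 for the family 5p reads, 0.904 for its 3p reads, and 0.942 and 1.23 for the 5p reads of miR-17-92 and miR-106b-25. They turned miR-93-5p to 1.38 and miR-20a-5p to 1.11, and moved the ratio of miR-93-5p to the others to 1.5 and the odds ratio of the 5p share to 1.22. Tags of 21 nt or more gave 0.956 and 0.870 for the 5p and 3p reads and 1.01 for miR-106b-25. The odds ratio of the arms of miR-17, examined in this way after seeing the data, was 0.951 with identical tags and 1.05 with tags of 21 nt or more. Identical tags and tags of 21 nt or more each left 1 arm, miR-20b-3p, past 1.5-fold, at 0.491 (0.222 to 1.04) and 0.566 (0.316 to 0.993). This scarce arm had 36 reads in the control and 29 in the PD03 library over all its tags. Its adjusted p in the exact binomial test was 0.109 with identical tags and 0.0975 with tags of 21 nt or more. The exact test of edgeR called 0 member arms with an assumed BCV of 0.1 and 0 with 0.2. Chosen after seeing the data, leaving out miR-93-5p gave 0.870 for the family 5p reads and 0.802 for the odds ratio of short ends, which was 0.637 with it. The cause of these shifts was not tested, beyond what each setting counts.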

Other observations

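A few reads came from the member hairpins outside both arms, 8 in the control and 20 in the PD03 library, in 3 distinct tags. They are described as values only. The stretch between the arms of Mir106b was read whole as 1 tag of 18 nt, which begins at the base after the most frequent 5p tag and ends at the base before the 3p miRNA, at positions 34 to 51 of the hairpin. It had 3 reads in the control and 14 in the PD03 library, a ratio of 4.20 per clean read (95% interval 1.17 to 22.8). In Mir20a a tag of 21 nt ended at position 26 of the hairpin, directly before miR-20a-5p begins at position 27, with 4 reads in the control and 6 in the PD03 library (ratio 1.35, 0.320 to 6.51). The sequences are shown because each abuts a mature miRNA.
miR-106b, between the arms: gtggtcctctctgtgcta
miR-20a, before the 5p miRNA: atgtgacagcttctgtagcac

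The detected miRNAs outside the family whose 2 levels were most like those of miR-93-5p, by Euclidean distance over the log2 RPM of the 2 libraries, were miR-294-5p (distance 0.064), miR-295-5p (0.12) and miR-99b-5p (0.26). Their fold changes per clean read were 0.935, 1.09 and 1.02.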
